A study of Homo sapiens with 2 samples.

Results

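H3K4me3 peaks that wild-type and ZNF143 knockout cells shared, and that had a higher fold in the knockout, are described here. They number 418 of 14405 shared pairs, or 2.90% of the pairs. A pair was a wild-type and a knockout peak on chromosomes 1 to 22 that overlapped each other by at least 1 bp and no other peak, each with a −log10 q of 10 or more. Of 15888 one-to-one pairs, 14405 met that minimum. The fold column of the lists gives the height of a summit over its local background. Each knockout fold was divided by the wild-type fold and then by the median of that ratio over all pairs, 0.966, and the 418 pairs whose centred ratio stood 33% or more above 1 were kept. The pairs were thus chosen by their fold, and every measure below comes from the same 2 libraries, so all values are given as a description with no test. The opposite set, with a ratio at or below the inverse of that threshold, held 450 pairs, or 3.12%, and is used for comparison.

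Both libraries were made from HEC-1-B, an established human uterine adenocarcinoma line, by chromatin immunoprecipitation with an H3K4me3 antibody. One group was wild type and the other carried the ZNF143KO genotype, with 1 library in each and no other treatment in the labels. The labels do not say whether the knockout line is 1 clone. The genotype labels were not checked here, since that needs the position of the edited gene in hg19. With 1 library per genotype, no difference below has a replicate check.

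H3K4me3 is the trimethylated form of lysine 4 on histone H3. It is laid down by SET1 and MLL methyltransferase complexes and marks the start sites of active genes, where strong promoters carry broad and high peaks and weak or distal sites carry low and narrow ones. ZNF143 is a zinc-finger protein that binds a long motif at many promoters, including those of small nuclear RNA genes, and it has been studied for its part in promoter contacts with CTCF and cohesin. The peak lists use hg19 coordinates. No hg19 sequence or gene annotation was used here, so regions are named by position and neither sequence nor nearest gene is given.

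The knockout list had the higher background rate and pileups. The lowest rate found in a list, taken as the genome rate, was 1.40 fragments per base for wild-type and 3.25 for knockout cells, which is 2.31 times as high. Read numbers were not used, so this rate is not a measure of depth alone. The number of fragments stacked at a summit, called the pileup, had a median of 208 over the 19058 wild-type regions and of 379 over the 18909 knockout regions on these chromosomes. Across the 14405 pairs the knockout pileup, with 1 added to each, was 1.85 times the wild-type one at the median. Peak values are the authors' own per peak, and their scaling between the lists is not stated. Ratios are therefore always relative to the median pair.

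The pairs with a higher knockout fold were weak peaks in wild-type cells. Their wild-type fold ran from 2.11 to 23.3 with a median of 8.67, against a median of 13.0 over all pairs. Their knockout fold ran from 2.91 to 32.9 with a median of 13.4, against 12.6 over all pairs. The centred ratio had a median of 1.48 and quartiles of 1.39 and 1.67. It was under 1.5 in 233 pairs and 2 or more in 32. The wild-type pileup of these pairs had a median of 28 fragments, with quartiles of 20 and 51, where the median over all pairs was 263. In the knockout the median pileup was 112 fragments, with quartiles of 68 and 189, where all pairs had 488.

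**Figure D1:**
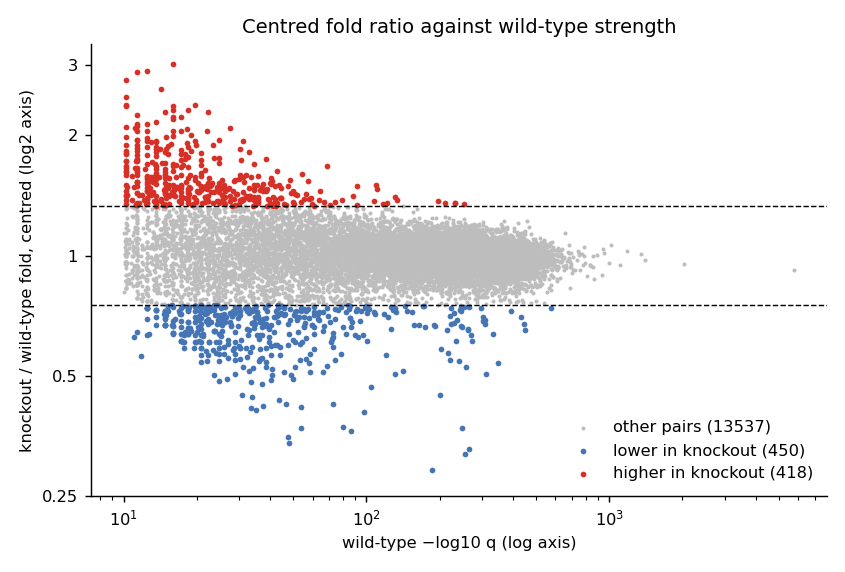
Centred knockout over wild-type fold (log2 axis) against the wild-type −log10 q (log axis), 1 point per pair, with dashed lines at the threshold and its inverse. The 418 pairs higher in the knockout are crowded at the left, and none lies beyond a wild-type −log10 q of 252.

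The share of pairs past the ratio fell with wild-type strength. Among the 1073 pairs with a wild-type −log10 q of 10 to 20 it was 21.8% (234 pairs, exact Clopper-Pearson 95% interval 19.4 to 24.4%). Between 20 and 40 it was 9.08% (126 of 1388 pairs), and between 40 and 80 it was 2.67% (43 of 1611). Only 10 of 2328 pairs between 80 and 160, and 5 of 5141 between 160 and 320, passed. Above 320, 0 of 2864 pairs did, with an interval of up to 0.129%. Intervals cover counting error only, and pairs are not replicates. Sorted by the knockout −log10 q in place of the wild-type one, the order was different. The share was 0% between 10 and 20 (0 of 456 pairs), 6.23% between 20 and 40, 11.8% between 40 and 80 and 8.47% between 80 and 160. The lowest knockout −log10 q in the set was 20.1. The fold enters −log10 q in both lists, so neither order is separate from the choice of the pairs.

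The opposite set had its own low end in the knockout list. Sorted by the knockout −log10 q, it took 42.3% of the pairs between 10 and 20 and 14.2% between 20 and 40. It took 5.09% between 40 and 80 and 2.30% between 80 and 160. Each set was thus most common at the weak end of the library where its fold was low, which follows in part from how the sets were chosen. By wild-type strength it took 7.83% of the pairs with a wild-type −log10 q of 10 to 20, 12.5% of those between 20 and 40 and 6.33% of those between 40 and 80. The minimum on −log10 q acts on both lists, and the lowest pileup among all pairs was 16 fragments in wild-type and 23 in knockout cells. In the lowest wild-type band, a pair with a lower knockout value can fall below the knockout minimum and leave the list of pairs, while a pair with a higher one cannot. Lowering the minimum to 5 in both lists gave 652 pairs past the ratio, or 4.24% of the pairs then made, and raising it to 20 gave 185, or 1.40%.

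**Figure D2:**
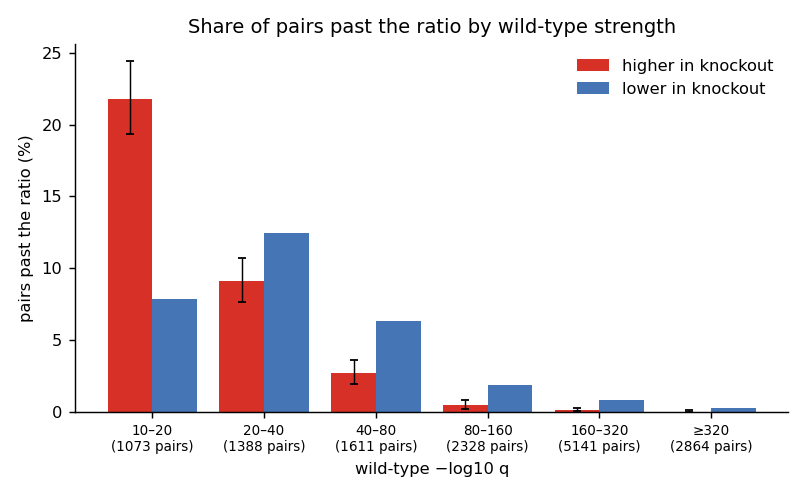
Share of pairs past the ratio (%) in 6 bands of wild-type −log10 q, for pairs higher (red, with exact 95% intervals for counting error) and lower (blue) in the knockout. The red bars fall from 21.8% in the weakest band to 0% in the strongest, while the blue bars are highest, at 12.5%, in the band from 20 to 40.

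With the fold as deposited, the largest ratios were mostly at peaks close to the wild-type minimum. At chr11:11268111-11268462 the wild-type fold was 9.15 from a pileup of 21 fragments (exact Poisson 95% interval 13.0 to 32.1). The knockout fold there was 26.6 from 188 fragments (162 to 217), which gave the largest centred ratio, 3.01. At chr6:27833080-27833433 the fold was 7.90 in wild-type and 22.1 in knockout cells, and the pileups were 18 and 106 fragments. The ratio is what chose these sites, so the intervals show their counting error and are no test.

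At chr20:49639404-49639644 the wild-type pileup was 17 fragments and the knockout pileup 278, with folds of 7.49 and 20.8. The background rate was higher as well, at 1.40 and 12.4 fragments per base, and the peak was 241 bp wide in wild-type and 1049 bp in knockout cells. At chr5:16616812-16617275 the pileup was 16 fragments in wild-type and 232 in knockout cells, with folds of 7.07 and 18.8. Its background rate was 1.40 and 11.4. Both sites thus had a narrow, low wild-type peak where the knockout list held a mid-ranking one.

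The remaining 4 of the 8 largest ratios lay between 2.38 and 2.61. At chr17:77817779-77818327 the pileup was 52 and 212 fragments and the fold 3.88 and 9.79. This site differed from the other 7 in its wild-type background rate of 12.6 fragments per base, where theirs was the genome rate of 1.40. Its 2 summits also lay 292 bp apart, against at most 23 bp at the other 7, so its folds were read at different positions. At chr5:140464280-140464541 the pileup was 16 and 82 fragments, at chr22:16861625-16862020 it was 24 and 107, and at chr7:23991-24442 it was 16 and 68. For 3 of the 8, the wild-type pileup of 16 was the lowest that any pair had. The order depends on the 1 that the fold adds to pileup and rate: without it, the site on chromosome 17 led these 8 with 2.66, and the ratios at chr11:11268111-11268462 and chr20:49639404-49639644 were 2.21 and 1.99.

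Strong wild-type peaks were rare in the set, and their ratios were close to the threshold. The 58 with a wild-type −log10 q of 40 or more had a median ratio of 1.38, against 1.496 for the other 360. The strongest was chr3:97482753-97484080, with folds of 12.0 and 15.6 and pileups of 365 and 596 fragments. It was followed by chr21:44845764-44847007, with folds of 11.1 and 14.5 and pileups of 352 and 710. At chr22:39096336-39097558 the folds were 9.33 and 12.2, and at chr8:141520570-141521962 they were 9.08 and 11.9. At chr3:56835072-56836272 they were 16.1 and 21.2. The wild-type and knockout summits lay 657 bp apart at the site on chromosome 22 and 299 bp apart at that on chromosome 8. The 2 folds were thus read at different positions there, while the summits of the others were at most 9 bp apart. The 5 ratios ran from 1.35 to 1.37. In 3 of these 5 pairs the pileup ratio was below that of the median pair, as shown by its centred log2 ratio of −0.19, −0.02 and −0.43 at the first, the third and the last.

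The threshold cut through a continuous distribution. The 3 pairs just inside, chr7:32931842-32932380, chr1:210424495-210425325 and chr19:44036441-44038043, stood 33.08%, 33.18% and 33.19% above the median ratio. The 3 just outside, chr8:145050051-145051411, chr8:7079367-7079534 and chr2:207308054-207308903, stood 32.97%, 32.92% and 32.81% above it. A threshold of 25% above the median ratio gave 648 pairs (4.50%), and one of 50% gave 185 (1.28%).

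The fold was then split into its parts. In these lists the fold equals the pileup plus 1 over the local background rate plus 1, so the centred fold ratio is a pileup ratio divided by a rate ratio, each centred on the median pair up to a small constant. The higher-fold pairs had a median centred log2 pileup ratio of 0.74, with quartiles of 0.49 and 1.12. Their median centred log2 rate ratio was 0.11, with quartiles of −0.11 and 0.43. In 262 of the 418 pairs pileup and rate were both above the median pair, with the pileup further above it. In 143 the pileup was above and the rate below. In the remaining 13 the pileup was at or below that of the median pair, and the rate was lower still. By the pileup ratio alone, 1402 pairs (9.73%) stood 33% or more above the median pair, among them 347 of the 418. Pileup and rate were centred on all chromosomes together. The chromosome medians of the centred log2 pileup ratio ran from −0.35 (chromosome 8) to 0.24 (chromosome 13), so pileup values mix differences of sites and of whole chromosomes.

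**Figure D3:**
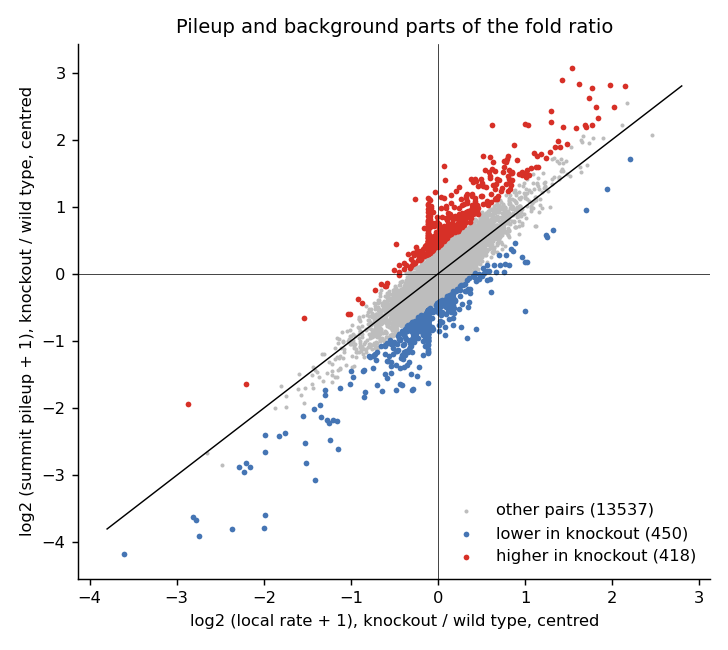
Centred log2 ratio, knockout over wild type, of the summit pileup plus 1 (vertical) against that of the local background rate plus 1 (horizontal), 1 point per pair. On the diagonal line both changed alike. The 418 red pairs lie above it, 13 of them with a pileup value at or below 0.

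In 11 of the 13 pairs the raw knockout pileup was still the higher, and in 2 it was the lower. At chr9:14314829-14315363 the pileup was 109 fragments in wild-type and 52 in knockout cells, and the rate was 38.0 and 9.18 fragments per base, so the fold was 2.82 and 5.21. At chr8:77593134-77595352 the pileup was 203 and 121 fragments and the rate 30.5 and 12.1, with folds of 6.47 and 9.31. Those sites were picked after their values were seen, as the only 2 of the 418 with a lower raw pileup in the knockout. They lie on the 2 chromosomes with the lowest median centred log2 pileup ratio over all their pairs. It was −0.27 on chromosome 9 and −0.35 on chromosome 8, so the low pileups are not particular to these sites alone. Also picked after its values were seen, chr3:42543869-42544550 had 66 and 563 fragments and a rate of 2.30 and 16.1, and its folds of 20.3 and 32.9 gave a ratio of 1.68.

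Many of these peaks stood on the lowest background in the wild-type library. The wild-type rate was at the genome rate in 175 of the 418 pairs (41.9%), against 671 of all 14405 (4.66%). In the knockout library 55 of the 418 (13.2%) were at the genome rate, against 679 of all pairs (4.71%). Among the 2101 pairs with a wild-type −log10 q under 40 that did not pass the ratio, 481 (22.9%) were at the genome rate in wild-type and 554 (26.4%) in knockout cells. Here and below, those 2101 pairs are not matched in strength to the 418, of which 58 had a wild-type −log10 q of 40 or more. The median wild-type −log10 q was 22.6 in the 2101 pairs and 18.4 in the 418. The opposite set ran the other way, with 188 of its 450 pairs (41.8%) at the genome rate in knockout and 101 (22.4%) in wild-type cells.

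The 1 that the fold adds to pileup and rate bears on sites with such low rates. The genome rates differ 2.31-fold between the libraries, but 1.77-fold after 1 is added to each. When the fold was taken as pileup over rate without the added 1, and centred on its own median, 221 pairs reached the threshold, or 1.53% of all. Of the 418 pairs, 196 (46.9%) were among them, and 411 (98.3%) had a ratio above 1, with a median of 1.31. The opposite set grew to 835 pairs, or 5.80%, under the same change. The set is thus made up of 196 pairs that pass both ways and 222 that pass only with the added 1.

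Knockout peaks of the higher-fold pairs were wider. The wild-type width ran from 165 to 2854 bp with a median of 516 bp, and the knockout width from 200 to 2904 bp with a median of 712 bp. The ratio of knockout to wild-type width had a median of 1.26, against 1.06 over all pairs and 1.00 in the opposite set. The knockout peak was the wider in 382 of 418 pairs (91.4%), against 83.6% of all pairs. It held the whole wild-type peak in 307 (73.4%, against 61.8% of all). It reached further on both sides in 304 (72.7%, against 60.3% of all). It lay within the wild-type peak in 10 (2.39%, against 5.30% of all). In the 2101 pairs with a wild-type −log10 q under 40 that did not pass the ratio, the median width ratio was 1.12, against 1.31 in the 360 that did. The 360 were the weaker, with a median wild-type −log10 q of 16.5 against 22.6. Whether the width differs apart from strength and from the choice by fold was not tested.

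The width ratio was highest for narrow wild-type peaks, in the set and over all pairs. The wild-type width is the denominator of this ratio, so the order by width is not separate from the sorting. For wild-type peaks under 300 bp, the 66 higher-fold pairs had a median width ratio of 1.60, against 1.22 over all 701 pairs of that width. Between 300 and 500 bp the medians were 1.39 and 1.15, and between 500 and 700 bp they were 1.26 and 1.12. From 1000 to 1500 bp they were 1.03 and 1.05. The width ratio was 2 or more in 34 of the 418 pairs (8.13%), against 0.88% of all pairs. Among pairs with a wild-type −log10 q under 40 that did not pass the ratio, the share was 3.52%. The width ratio was largest at chr20:49639404-49639644, already described, with 4.35. At chr11:74952933-74953191 the peak went from 259 to 899 bp and at chr3:139258390-139258625 from 236 to 748 bp. The smallest ratios were 0.660 at chr19:18547785-18548178, 0.712 at chr17:45928097-45928826 and 0.716 at chr1:211499951-211500618, where the fold was higher over a narrower knockout peak.

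**Figure D4:**
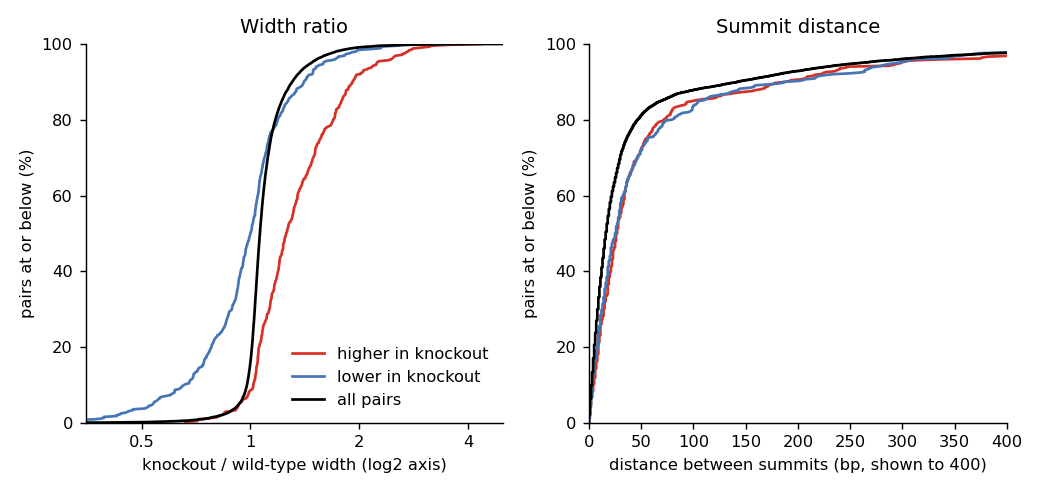
Cumulative share of pairs (%) by knockout over wild-type width (left, log2 axis) and by the distance between the 2 summits in bp (right, shown to 400 bp), for pairs higher in the knockout, lower in the knockout, and all pairs. The red width curve lies to the right of both others, with a median of 1.26, while the red and blue summit curves nearly coincide.

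The summits mostly stayed in place. The distance between the wild-type and knockout summit had a median of 27 bp and quartiles of 11 and 54.8 bp, against a median of 16 bp over all pairs and 25.5 bp in the opposite set. It was 26 bp in the pairs with a wild-type −log10 q under 40 that did not pass the ratio. It was at most 50 bp in 303 of 418 pairs (72.5%), against 81.3% of all pairs. Shifts to either side were about equally common. The knockout summit lay at the higher coordinate in 206 pairs, at the lower in 204 and at the same base in 8. The wild-type summit lay inside the knockout peak in all 418 pairs.

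The summit differed by over 500 bp in 8 pairs (1.91%, 95% interval 0.83 to 3.74%), and the share over all pairs, 1.23%, lies within that interval. All 8 had a wild-type peak wider than the median of the set. The furthest was 1019 bp, at chr10:102826160-102827723, a peak of 1564 bp in wild-type and 1600 bp in knockout cells. The next were 750 bp at chr12:56472925-56474374 and 675 bp at chr1:934436-937289. At these 3 sites the width changed by under 5%, with ratios of 1.02, 1.04 and 1.02, so the highest point differed within a peak of nearly the same extent. In the 29 higher-fold pairs whose wild-type peak was 1000 to 1500 bp wide, the median distance was 207 bp, where all pairs of that width had 16 bp.

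By −log10 q, the higher-fold pairs moved from the bottom of the wild-type list to the lower middle of the knockout list. Their median percentile was 19.6 among wild-type peaks (quartiles 15.8 and 25.8) and 32.6 among knockout peaks (quartiles 27.5 and 38.9). The shift in percentile had a median of 11.6 points, against 0.59 over all pairs. It was upward in 414 pairs and downward in 4, and it exceeded 20 points in 35. In wild-type cells 304 of the 418 (72.7%) were in the lowest 25% of the list, against 12.1% of all pairs. In knockout cells 64 (15.3%) were, against 9.98% of all pairs. For the pairs with a wild-type −log10 q under 40 that did not pass the ratio, these shares were 68.5% and 60.6%. The opposite set ran the other way, with 326 of 450 (72.4%) in the lowest 25% of the knockout list and 439 moving down. Of the 418, 5 stood above the middle of the wild-type list and 23 above that of the knockout list. Below the middle of the wild-type list were 98.8% of the set and 40.2% of all pairs. In the knockout list these shares were 94.5% and 39.7%. The fold enters −log10 q, so this shift is not separate from the choice of the pairs.

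The largest difference in rank was at chr3:42543869-42544550, where −log10 q went from 68.6 to 630 and the percentile was 51.3 points higher. It was followed by chr17:7759535-7760852, where −log10 q went from 121 to 610, 40.1 points higher, with a centred ratio of only 1.35. The lowest was at chr8:77593134-77595352, where −log10 q was 91.7 in wild-type and 73.5 in knockout cells and the rank dropped by 10.7 points although the fold was higher.

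The pairs were spread over all 22 chromosomes. Their share ran from 1.79% on chromosome 3 (15 of 840 pairs, 95% interval 1.00 to 2.93%) to 5.46% on chromosome 22 (20 of 366, 3.37 to 8.31%). Chromosome 8 had 1.80% (10 of 557) and chromosome 9 had 2.07% (14 of 676) at the lower end. Chromosome 21 had 5.16% (8 of 155) and chromosome 6 had 4.47% (32 of 716) at the upper end. On 20 of the 22 chromosomes the interval held the share over all, 2.90%, and on chromosomes 6 and 22 it lay above it. The opposite set took 4.52% of the pairs on chromosome 3, 4.56% on chromosome 19 and 2.46% on chromosome 22. On chromosome 6, 179 of the 716 pairs had a wild-type −log10 q under 40, and on chromosome 22, 69 of 366, against 17.1% over all. Of those weak pairs, 16.2% on chromosome 6 and 23.2% on chromosome 22 passed the ratio, against 14.6% (360 of 2461) over all.

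**Figure D5:**
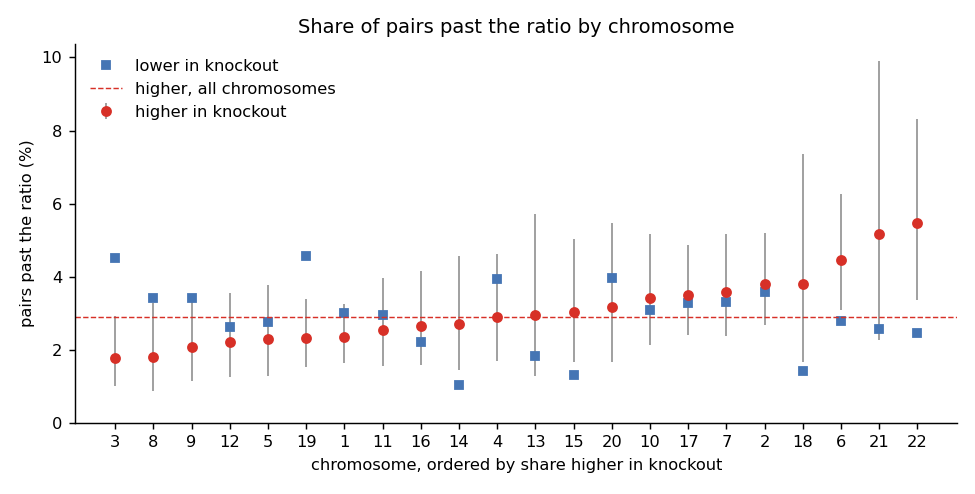
Share of pairs past the ratio (%) on each of the 22 chromosomes, ordered by the share higher in the knockout (red, with exact 95% intervals for counting error), with the share lower in the knockout (blue) and the red share over all chromosomes, 2.90% (dashed). The intervals of chromosomes 6 and 22 lie above the dashed line, and the blue share is highest on chromosomes 19 and 3.

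Most higher-fold pairs had no other pair of the set close by. Between neighbours of the set on a chromosome, the median distance was 2.82 Mb, with quartiles of 0.88 and 7.91 Mb, and the opposite set had a median of 2.73 Mb. Another pair of the set lay within 100 kb of 40 of the 418 (9.57%), and in the opposite set this was so for 51 of 450 (11.3%). Over all pairs, another pair lay within 100 kb of 81.6%. A set of 2.90% of the pairs is sparse by its number alone, so these values do not say whether it clusters, which was not tested. In the order of all pairs along the chromosomes, 373 had no direct neighbour from the set, 21 runs held 2 and 1 run held 3. The opposite set had 19 runs of 2 and 1 of 3.

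Neighbouring pairs were read only where they were not in the set themselves, which removes high ratios beside the higher-fold pairs and low ratios beside the opposite set. The 468 pairs outside the set that stood next to one of its pairs within 100 kb had a median centred log2 fold ratio of −0.01, and 208 of them (44.4%) lay above 0. Next to the opposite set, 290 of 535 such pairs (54.2%) lay above 0. The median centred log2 pileup ratio of the 468 was 0.01. They were stronger peaks, with a median wild-type −log10 q of 182. The gap from a higher-fold pair to the next wild-type peak of any kind had a median of 18.8 kb, against 17.6 kb over all pairs. It was 100 kb or more in 86 of the 418 (20.6%), against 13.5% of all pairs and 13.7% of the pairs with a wild-type −log10 q under 40 that did not pass the ratio. These shares were not tested.

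The 1 run of 3 was on chromosome 22 and spanned 190 kb. Its pairs were chr22:18688175-18688456 with pileups of 37 and 97 fragments, chr22:18717980-18718204 with 55 and 150, and chr22:18878005-18878314 with 18 and 66. The second had a fold of 23.3 in wild-type and 32.5 in knockout cells over 225 and 277 bp, both at or near the genome rate. Without the added 1 the 3 ratios were 1.19, 1.13 and 1.16, below the threshold. The shortest runs of 2 spanned 5.37 kb on chromosome 6, at chr6:26026968-26027453 and chr6:26031627-26032341, and 6.08 kb on chromosome 17, at chr17:7754777-7755128 and chr17:7759535-7760852. On chromosome 17 the pileups were 40 and 201 fragments at the first and 169 and 755 at the second, the latter being the site with the large difference in rank described above.

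In windows of 1 Mb, the highest number was 4, reached in 2 windows. The first window of chromosome 1 held 4 among 17 pairs, of which chr1:10012-10460 had pileups of 32 and 193 fragments and chr1:911336-912032 had 23 and 98. The others were chr1:859004-860598 with 27 and 198 fragments and chr1:934436-937289 with 242 and 635. On chromosome 6 the window from 26 to 27 Mb held 4 among 27 pairs, with knockout pileups of 52 to 139 fragments. On chromosome 17 the window from 77 to 78 Mb held 3 among 11 pairs, among them the site with a ratio of 2.61. A single pair of the set was in 303 windows, 2 pairs were in 34 and 3 in 13.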

How the data were processed

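The data are 2 lists of H3K4me3 peaks, 1 for each library of HEC-1-B cells. Bowtie2, SAMtools 1.12, MACS2 and deepTools, and the hg19 build, are named in the submitters' processing notes, with no role or order. Settings, duplicate handling and a control library are not given in the sources used here. Both deposited lists have the 10-column narrowPeak layout without a header, and each carries its own name prefix. The deposited fold column (a ratio to the local background), the deposited −log10 p and −log10 q columns and the summit offset were used. The deposited score column, which restates −log10 q, was not. By its general design MACS2 takes the background rate from the genome average or from the surroundings of a peak, whichever is higher.

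A whole-number pileup and a local rate were solved for every peak from the fold and the Poisson −log10 p. The p column was met to a relative error of 8.56e-06 (wild type) and 1.17e-05 (knockout) at most. In lists simulated with as many regions as the real ones on these chromosomes, 19058 and 18909, 100.0% of pileups came back. The simulation used the same formulas that were solved, so it checks the arithmetic only. Its pileups were also kept well above the rate, so the lowest real folds, down to 1.54 (wild type) and 1.46 (knockout), were not covered. Percentiles are within the own list on chromosomes 1 to 22. Coordinates are hg19, counted from 1, and are those of the wild-type peak.

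With 1 library per genotype no test was made. Intervals on shares are exact Clopper-Pearson and those on pileups exact Poisson, at 95%, and cover counting error only, since fragments without molecular identifiers may not be independent molecules. Total read numbers were not used. The named regions are the 8 of largest ratio, the 5 of highest wild-type −log10 q, the 3 widest and 3 narrowest width ratios, the 3 furthest summit shifts, the 3 longest runs (ties by shorter span), the 3 fullest windows of 1 Mb (ties by share) and the 3 pairs on either side of the threshold. Any other region was chosen after its values were seen. The pairs and these rules were chosen with earlier results of the same data known. The planned motif search and nearest genes needed an hg19 reference and were not run. The work used scipy 1.17.1, numpy 2.4.6 and pandas 2.3.3 under Python 3.11.15, with plots from matplotlib 3.10.9.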

Additional observations from a re-analysis of the deposited data

Results flagged for a closer look

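Pairs outside chromosomes 1 to 22 entered no comparison above, and the same ratio was read there with the centring of chromosomes 1 to 22. On chromosome X, 23 of 506 pairs reached the threshold (4.55%, exact Clopper-Pearson 95% interval 2.90 to 6.74%), and 13 reached the inverse. On haplotype sequences, which repeat parts of the assembled chromosomes, 35 of 427 pairs did (8.20%, interval 5.78 to 11.2%), and 19 reached the inverse. The counts of 23 and 35 are above the 3 that a count of 0 allows, which is the only reason they are listed. That limit takes no account of the number of pairs, so passing it shows no excess. The threshold was also reached by 2 of 37 pairs on chromosome Y (5.41%) and 3 of 92 on unplaced or unlocalized sequences (3.26%). On mitochondrial sequence 0 of 2 pairs reached it. On chromosomes 1 to 22 the share was 2.90%, and no difference from it was tested. There was no control library among the samples, and pairs on haplotype sequences can share reads with each other and with the assembled chromosomes, so they are not independent.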

How the results depend on the processing

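No paired analysis was possible because there was 1 library for each genotype, and no replicate could be left out for the same reason. The setting without the added 1 was chosen after seeing the data, and all others were planned. The number of pairs, 418, became 648 at a threshold of 25% above the median ratio, 185 at 50%, 652 and 185 at a −log10 q of 5 and 20, 1402 with pileup in place of fold (9.73% of pairs) and 221 without the added 1. By pileup, 347 of the 418 remained. The pileup setting was not centred per chromosome, so its values here and below also carry chromosome-wide differences in pileup. A reciprocal overlap of 50%, centring per chromosome, no centring, and summits within 200 bp gave between 341 and 415 pairs.

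The share with another such pair within 100 kb, 9.57%, became 13.7%, 5.41%, 14.7%, 3.24% and 37.7% under the first 5 of these settings, in that order, and 6.88% with summits within 200 bp. The median width ratio, 1.26, became 1.39 at 50%, 1.35 and 1.19 at a −log10 q of 5 and 20, and 1.18 by pileup. The median summit distance, 27 bp, became 22 bp at a −log10 q of 20 and 21 bp by pileup. The median rank shift, 11.6 points, became 10.2 at 25%, 14.0 at 50%, 10.9 at a −log10 q of 20, 12.2 without centring, 10.4 by pileup and 12.2 without the added 1. The median log2 pileup ratio, 0.74, became 0.62 at 25%, 0.99 at 50%, 0.85 without centring, 0.62 by pileup and 0.68 without the added 1.

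By pileup the log2 ratio reversed to −0.024 at chr22:39096336-39097558, −0.43 at chr3:56835072-56836272 and −0.19 at chr3:97482753-97484080. Counting error is largest, relative to the pileup, at the weak end of the set, where a wild-type pileup of 16 fragments has an exact Poisson interval of 9.15 to 26.0.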
